A study of Mus musculus with 8 samples.

Results

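The genes described here are 6 of the 53465 gene identifiers measured by RNA-seq in sorted mouse Treg cells, namely the gamma TCR constant genes Tcrg-C1, Tcrg-C2 and Tcrg-C4, the delta TCR constant gene Trdc, and Sox13 and Blk, which are known from gamma-delta T cells. They were chosen because Tcrg-C1 differed in opposite directions between Brg1-positive and Brg1-deleted Treg cells in the mosaic females and in the TAM-treated rKO1 mice. The levels of Tcrg-C1 in those 4 libraries are therefore a description, and so are the levels of the other 5 genes, which were picked from the same libraries. Each group is 1 library, so no p-value is given. Intervals in parentheses are exact 95% binomial intervals of the reads, which cover counting error only and not the spread between mice.

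All 8 libraries were made from Treg cells of spleen and lymph nodes of C57BL/6 mice aged 3–4 weeks, and all carried R26 CAG-FlpoER, a ubiquitous Flpo recombinase that TAM activates. The 6 total Treg libraries were the following. WT cells had the genotype Brg1 F/+ with Foxp3 YFP-Cre/+, so that the control was heterozygous for Brg1 where Cre acted. Brg1-sufficient cells from healthy mosaic females were Brg1 F/ΔR with Foxp3 +/+ in the label and lacked YFP, and Brg1-deleted cells from mosaic females were Brg1 F/ΔR with Foxp3 YFP-Cre. In the paper, rKO1 females are Foxp3 YFP-Cre/YFP-Cre and rKO1 males carry a single YFP-Cre allele. The rKO1 mice here were labelled Brg1 F/ΔR with Foxp3 YFP-Cre/YFP-Cre, although their libraries held Y-linked RNA (given below), which goes against that label. These mice had severe inflammation. Their Treg cells came without treatment (Brg1-deleted) or on day 7 after a low dose of TAM, as the GFP+ Brg1-deleted subset and the GFP- Brg1-reexpressed subset, whose Brg1 genotype is given as F/+. The Cre in Foxp3 YFP-Cre is driven by the Foxp3 gene, F is a floxed allele, and ΔR is a null allele that Flpo turns back to a functional one. The other 2 libraries held aTreg cells (activated Treg, sorted by surface markers of activation that include CD44hi) of rKO1 mice on day 7 after TAM, labelled Brg1-deleted (described as Brg1 F/F) and Brg1-reexpressed (Brg1 F/+), both with Foxp3 YFP-Cre/YFP-Cre. They were sequenced in a separate experiment, and levels are compared only within an experiment. The stated sort was CD4+CD25+YFP+ after depletion of non-CD4 cells. The gate for the YFP- cells of the mosaic females was not given in the sources used here.

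A gamma-delta TCR is made of a gamma and a delta chain, and each chain gene is assembled from V, J and, for delta, D segments that are spliced to a constant (C) gene. Most CD4+ Treg cells carry an alpha-beta TCR instead. Trdc lies inside the alpha locus between the V segments and Trac, and rearrangement of the alpha chain cuts the stretch that holds it out of the chromosome. The gamma locus lies elsewhere and stays in the genome of alpha-beta T cells. Sox13 is a transcription factor of the gamma-delta lineage, and Blk is a Src-family kinase that is used by B cells and by some gamma-delta T cells.

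The C genes of the gamma locus are near copies of each other, which matters for how reads are divided among them. On GRCm38, Tcrg-C1 is at chr13:19214103-19217024 on the plus strand, Tcrg-C2 at chr13:19304649-19307551 on the minus strand and Tcrg-C4 at chr13:19344558-19352756 on the plus strand. Their coding sequence begins in exon 1, which is 330 bases long in each gene. The first 90 bases of exon 1 are shown 5′ to 3′ on the coding strand, with the bases that differ from Tcrg-C1 in capitals. Tcrg-C3, which is not among the 6 genes, is shown as the remaining copy.
Tcrg-C1: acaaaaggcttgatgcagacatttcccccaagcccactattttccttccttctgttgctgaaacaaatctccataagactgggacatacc
Tcrg-C2: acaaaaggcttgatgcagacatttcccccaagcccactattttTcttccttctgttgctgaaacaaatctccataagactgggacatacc
Tcrg-C3: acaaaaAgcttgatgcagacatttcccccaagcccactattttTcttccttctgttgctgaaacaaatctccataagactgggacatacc
Tcrg-C4: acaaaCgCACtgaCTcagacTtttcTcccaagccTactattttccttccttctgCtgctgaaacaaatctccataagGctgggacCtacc

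Over the whole of exon 1, Tcrg-C2 differed from Tcrg-C1 at 9 bases (97.3% identical), Tcrg-C3 at 13 bases (96.1%) and Tcrg-C4 at 59 bases (82.1%). The short exons that follow, which code for the hinge next to the membrane, set the genes apart more clearly. Exon 2 is shown because its length differs between these genes, with 45 bases in Tcrg-C1, 30 in Tcrg-C2 and 54 in Tcrg-C4. Length alone does not separate all of the short exons. Exon 3 of Tcrg-C4 also has 45 bases, and exon 2 of Tcrg-C3 has 44.
Tcrg-C1 exon 2: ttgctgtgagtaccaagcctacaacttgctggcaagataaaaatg
Tcrg-C2 exon 2: ttgctacaacttgctggcaagataaaaatg
Tcrg-C4 exon 2: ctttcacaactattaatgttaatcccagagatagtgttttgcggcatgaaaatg
No stretch of 150 bases, the length of a sequenced end, was shared between the annotated transcripts of any of these C genes. At 75 bases, 12.9% of the stretches of Tcrg-C1 and 9.17% of those of Tcrg-C2 occurred in another C gene, and none of Tcrg-C4 did. The division of reads between Tcrg-C1 and Tcrg-C2 is therefore less certain than that between either and Tcrg-C4.

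Trdc is at chr14:54142851-54148868 on the plus strand, with Trac at chr14:54220521-54224206 on the same strand. Of the exon bases of Trdc, 7.84% are also covered by exons of Gm43434 and Trdv5 on the minus strand, and since strand-specific counting is not stated in the sources used here, reads in that stretch cannot be assigned to either side. Sox13 is at chr1:133382303-133424377 and Blk at chr14:63372836-63417037, both on the minus strand.

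The libraries held 16283424 to 24036805 recovered reads on genes, so that 1 read equalled 0.0412 to 0.0603 CPM, the unit of level used here, in which reads are divided by a library total that TMM scaling adjusts to the bulk of genes. Counts of up to 3 reads are called the floor. Treg markers were present in every library, with Foxp3 from 62.2 to 536 CPM (31.5% of its exon bases are shared with neighbouring genes), Cd4 from 124 to 255 CPM and Il2ra from 244 to 425 CPM. Smarca4, which encodes BRG1, was at 36.1 to 47.2 CPM in the 3 Brg1-deleted total Treg libraries and at 58.1 to 88.0 CPM in the other 3. In aTreg cells it was at 71.2 CPM in the library labelled Brg1-deleted and at 59.4 CPM in the library labelled Brg1-reexpressed. This order is opposite to that of the labels. In the paper, the ΔR allele still makes a fusion product from its upstream exons. Reads over the whole gene therefore do not settle whether functional Brg1 was present. The values of the aTreg library labelled Brg1-deleted were also deposited under a name that calls it WT. The aTreg comparison may therefore not be one of Brg1-deleted cells. The aTreg libraries are therefore named by their labels only. The aTreg library labelled Brg1-reexpressed also stood apart by 6 erythroid genes, which took 2.25% of its reads against at most 0.119% elsewhere. Xist, the RNA of the inactive X chromosome in females, was at 0.523 CPM in untreated rKO1 and at 45.5 to 164 CPM in the other 5 total Treg libraries. The Y-linked gene Ddx3y had 0 reads in WT and both mosaic libraries, 1040 reads in untreated rKO1 cells, 633 and 459 in GFP+ and GFP- rKO1 cells, and 640 and 322 in the aTreg libraries, so that the day 7 rKO1 libraries held both Xist and Y-linked RNA. The 3 comparisons with untreated rKO1 cells therefore also differ in sex-linked RNA, and in those with WT and mosaic cells sex and condition cannot be told apart. The aTreg comparison differs in sex-linked RNA too. Xist was at 12.3 CPM in the library labelled Brg1-deleted and at 42.4 CPM in that labelled Brg1-reexpressed, opposite to their Ddx3y reads.

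Tcrg-C1, the most abundant of the gamma C genes, was highest in WT cells and lowest in Brg1-reexpressed cells of TAM-treated rKO1 mice. It had 715 reads (43.1 CPM, 40.0–46.4) in WT, 348 reads (16.4 CPM, 14.8–18.3) in the Brg1-sufficient and 148 reads (6.10 CPM, 5.16–7.16) in the Brg1-deleted mosaic cells. In rKO1 mice it had 84 reads (4.40 CPM, 3.51–5.44) without treatment, 481 reads (26.3 CPM, 24.0–28.7) in GFP+ Brg1-deleted cells on day 7 and 16 reads (0.955 CPM, 0.546–1.55) in GFP- Brg1-reexpressed cells on day 7. All 5 neighbours in this order of 6 libraries differed by more than counting error, the closest being Brg1-deleted mosaic and untreated rKO1 cells at 1.39-fold (1.05–1.84). The highest and lowest libraries, 45.1-fold apart, are both Brg1-positive by their labels, and the 3 Brg1-deleted libraries lie between them.

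**Figure D1:**
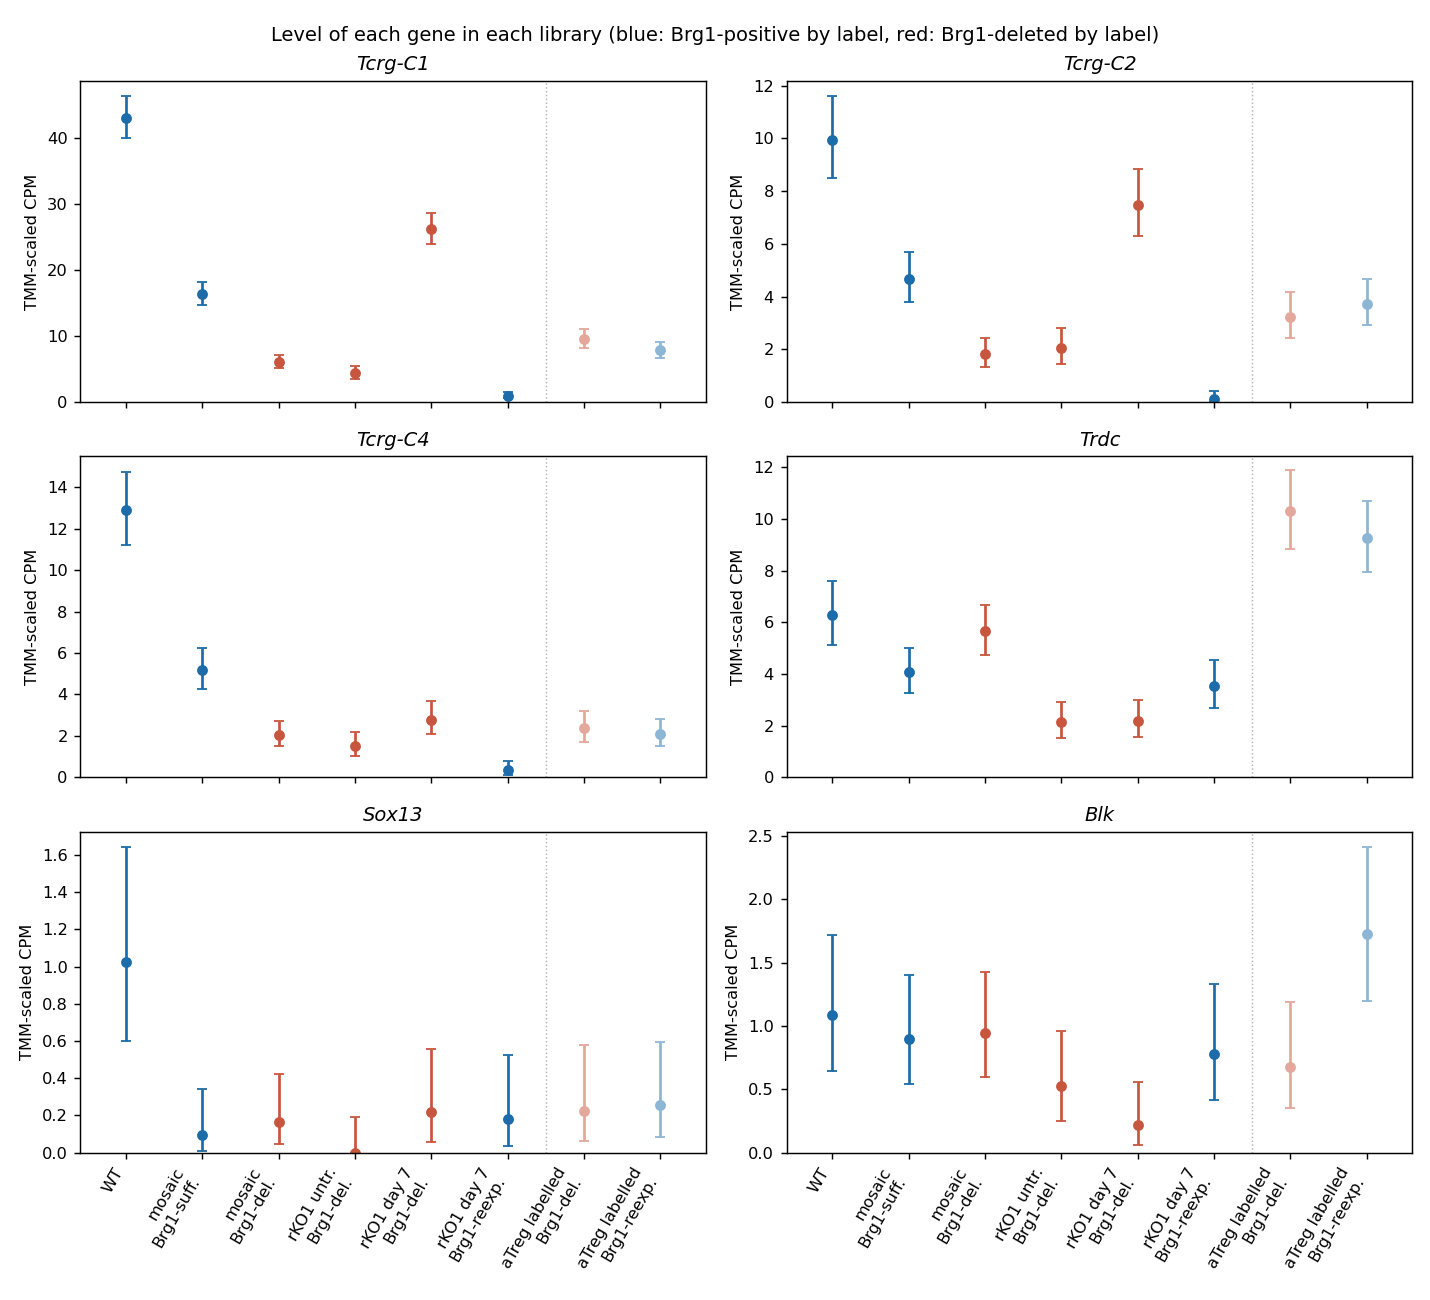
TMM-scaled CPM (vertical axis, starting at 0) of the 6 genes in each of the 8 libraries. Points are single libraries, bars are 95% intervals of the reads, blue marks Brg1-positive and red Brg1-deleted libraries by their labels, and paler points right of the dotted line are aTreg libraries. The 3 gamma C genes share their highest library (WT) and their lowest (rKO1 day 7 Brg1-reexpressed), while Trdc is highest in WT and lowest in untreated rKO1 among the 6 total Treg libraries.

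In deposited FPKM, which allow comparison between genes since they are per length of exon, Tcrg-C1 ranged from 1.10 to 51.0 with a median of 12.4 over the 6 total Treg libraries. In WT, 1517 genes had a higher FPKM than Tcrg-C1, and in the Brg1-reexpressed rKO1 library 11183 genes did. Against Trac, the alpha chain constant gene, the FPKM of Tcrg-C1 came to 3.24% in WT, 1.22% and 0.604% in the Brg1-sufficient and Brg1-deleted mosaic cells, 0.526% in untreated rKO1 cells, and 2.61% and 0.0564% in the GFP+ and GFP- rKO1 cells on day 7. Trac itself ranged only from 846 to 1713 CPM over these libraries, so the order of Tcrg-C1 stayed the same when it was taken per Trac.

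Tcrg-C2 ran closely beside Tcrg-C1. It had 165 reads (9.95 CPM) in WT, 99 (4.68 CPM) in Brg1-sufficient and 44 (1.81 CPM) in Brg1-deleted mosaic cells, and 39 (2.04 CPM), 137 (7.48 CPM) and 2 (0.119 CPM) in the untreated, GFP+ and GFP- rKO1 cells. Untreated rKO1 and Brg1-deleted mosaic cells did not differ beyond counting error (1.13-fold, 0.712–1.77), and the other neighbours in the order did. The count in the Brg1-reexpressed rKO1 library is at the floor.

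Tcrg-C4 is served by the most distant C sequence of the locus. It had 214 reads (12.9 CPM) in WT, 110 (5.20 CPM) in Brg1-sufficient and 50 (2.06 CPM) in Brg1-deleted mosaic cells, and 29 (1.52 CPM), 51 (2.79 CPM) and 6 (0.358 CPM) in the untreated, GFP+ and GFP- rKO1 cells. The GFP+ rKO1, Brg1-deleted mosaic and untreated rKO1 libraries, in this order, did not differ from their neighbours beyond counting error (1.35-fold, 0.897–2.04, and 1.36-fold, 0.843–2.22). Where Tcrg-C1 and Tcrg-C2 put the GFP+ rKO1 library next to WT, Tcrg-C4 put it below the Brg1-sufficient mosaic library (1.87-fold, 1.33–2.65).

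The proportion of Tcrg-C4 to Tcrg-C1 reads shows the same point within a library, where no scaling enters. It was 0.299 (0.256–0.349) in WT, 0.316 (0.253–0.393) and 0.338 (0.240–0.468) in the mosaic cells, and 0.345 (0.218–0.532) in untreated rKO1 cells. In the GFP+ rKO1 library it was 0.106 (0.0778–0.142), below the intervals of those 4 libraries. In the Brg1-reexpressed library, 0.375 rested on 6 and 16 reads (0.120–1.01). Reads of Tcrg-C2 per Tcrg-C1 read ranged from 0.231 in WT to 0.464 in untreated rKO1 among the 5 libraries with more than 3 Tcrg-C2 reads. The GFP+ rKO1 library, at 0.285 (0.234–0.345), lay within that range for Tcrg-C2, so that it was low in Tcrg-C4 for its Tcrg-C1 and not in Tcrg-C2.

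To ask how the genes differed with Brg1 under physiological conditions, the Brg1-sufficient mosaic cells were set against the Brg1-deleted ones. The gamma C genes were higher with Brg1. Tcrg-C1 was 2.70-fold higher (2.22–3.29; log2 1.43), Tcrg-C2 2.58-fold (1.79–3.77; log2 1.36) and Tcrg-C4 2.52-fold (1.79–3.60; log2 1.33), so that the intervals of the 3 genes overlap. A gene was tested when it reached 5 CPM in either library and called at a difference of at least 2-fold. Of the 6 genes, 3 were tested (Tcrg-C1, Tcrg-C4 and Trdc), and Tcrg-C1 and Tcrg-C4 were called, both higher with Brg1. Among all 10062 genes tested, 6.11% were called, 4.03% as higher and 2.09% as lower with Brg1. Tcrg-C1 was chosen for this contrast, so nothing is read from that count. Trdc went the other way, at 86 against 137 reads, 1.39-fold lower with Brg1 (1.05–1.84) and not called.

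To ask the same in inflamed mice, the GFP- Brg1-reexpressed rKO1 cells were set against the GFP+ Brg1-deleted cells on day 7 after TAM. Here the gamma C genes were lower with Brg1. Tcrg-C1 was 27.5-fold lower (16.8–48.5; log2 −4.77), Tcrg-C2 62.6-fold lower (17.0–522, from 2 reads against 137; log2 −5.89) and Tcrg-C4 7.77-fold lower (3.34–22.2; log2 −2.93). Tcrg-C1 and Tcrg-C2 were the only 2 of the 6 genes that were tested, and both were called as lower. Among all 10312 genes tested, 12.8% were called, 7.13% as higher and 5.62% as lower with Brg1, and nothing is read from the count of chosen genes against it. Trdc was again opposite, at 59 against 40 reads, 1.61-fold higher with Brg1 (1.06–2.47), and under 5 CPM in both libraries.

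In aTreg cells, none of the gamma C genes differed between the libraries beyond counting error. Tcrg-C1 had 169 reads (9.55 CPM) in the library labelled Brg1-deleted and 154 reads (7.83 CPM) in that labelled Brg1-reexpressed, a ratio of 1.22 (0.975–1.53). Tcrg-C2 had 57 and 73 reads (1.15-fold higher in the second, 0.803–1.66), and Tcrg-C4 had 42 and 41 reads (1.14-fold lower, 0.723–1.80). Trdc had 182 reads in both, a ratio of 1.11 (0.901–1.37). Of the 2 genes tested, Tcrg-C1 and Trdc, 0 were called, where 6.44% of all 10030 genes tested were, 4.41% as higher and 2.03% as lower in the library labelled Brg1-reexpressed. For the 3 gamma C genes, these intervals do not reach the folds measured between GFP- and GFP+ total Treg cells of TAM-treated rKO1 mice. The Brg1 status of the aTreg libraries is uncertain, however, since the order of their Smarca4 levels and a deposited name differ from the labels.

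The design also holds pairs of libraries that share their Brg1 status, and in these the gamma C genes differed as well. WT and mosaic Brg1-sufficient cells are both Brg1-positive by their labels. WT exceeded the mosaic cells 2.62-fold (2.31–2.99) for Tcrg-C1, 2.13-fold (1.65–2.76) for Tcrg-C2 and 2.48-fold (1.97–3.16) for Tcrg-C4, and all 3 were called among the 4 genes tested. Trdc, the fourth, was 1.54-fold higher (1.15–2.08) and not called. Of all 10134 genes tested in this pair, 9.33% were called, 4.19% as higher and 5.14% as lower in WT. For Tcrg-C1, Tcrg-C2 and Tcrg-C4 alike, the difference between these Brg1-positive libraries was about as large as that between the mosaic libraries with and without Brg1, with overlapping intervals.

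Untreated and GFP+ day 7 cells of rKO1 mice are both Brg1-deleted. The GFP+ cells exceeded the untreated cells 5.98-fold (4.73–7.63) for Tcrg-C1 and 3.67-fold (2.55–5.38) for Tcrg-C2, the 2 genes tested, and both were called as higher. Of all 10295 genes tested, 4.42% were called, 2.16% as higher and 2.26% as lower on day 7. Tcrg-C4 was 1.84-fold higher (1.14–3.00) and Trdc was level at 40 against 41 reads (1.02-fold, 0.642–1.61). The interval of Tcrg-C1 lies above that of Tcrg-C4. Untreated rKO1 cells and Brg1-deleted mosaic cells, which share their Brg1 status but not the inflammation of the host, were close for Tcrg-C1 (1.39-fold lower in rKO1, 1.05–1.84), Tcrg-C2 (1.13-fold higher, 0.712–1.77) and Tcrg-C4 (1.36-fold lower, 0.843–2.22). Trdc, lower in rKO1 by 2.63-fold (1.84–3.83), was the 1 gene called among the 2 tested, where 15.1% of all 10405 genes were called, 8.16% as higher and 6.96% as lower.

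Untreated rKO1 cells against WT gave the only one of the 7 comparisons in which Trdc was called together with the gamma C genes. Tcrg-C1 was 9.81-fold lower (7.82–12.5), Tcrg-C2 4.88-fold (3.42–7.10), Tcrg-C4 8.51-fold (5.75–13.0) and Trdc 2.92-fold (2.02–4.31). All 4 were tested and called as lower, where 15.7% of all 10471 genes tested were called, 8.6% as higher and 7.11% as lower. Trac was lower as well in this comparison, by 1.59-fold (1.56–1.63). Of 7 tested genes of the alpha-beta TCR and CD3, 3 were called as lower and 0 as higher. Their median log2 was −0.98, against −0.05 over all genes tested. The fall was therefore not particular to the gamma and delta genes. The comparisons given here share libraries with each other and are not independent.

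**Figure D2:**
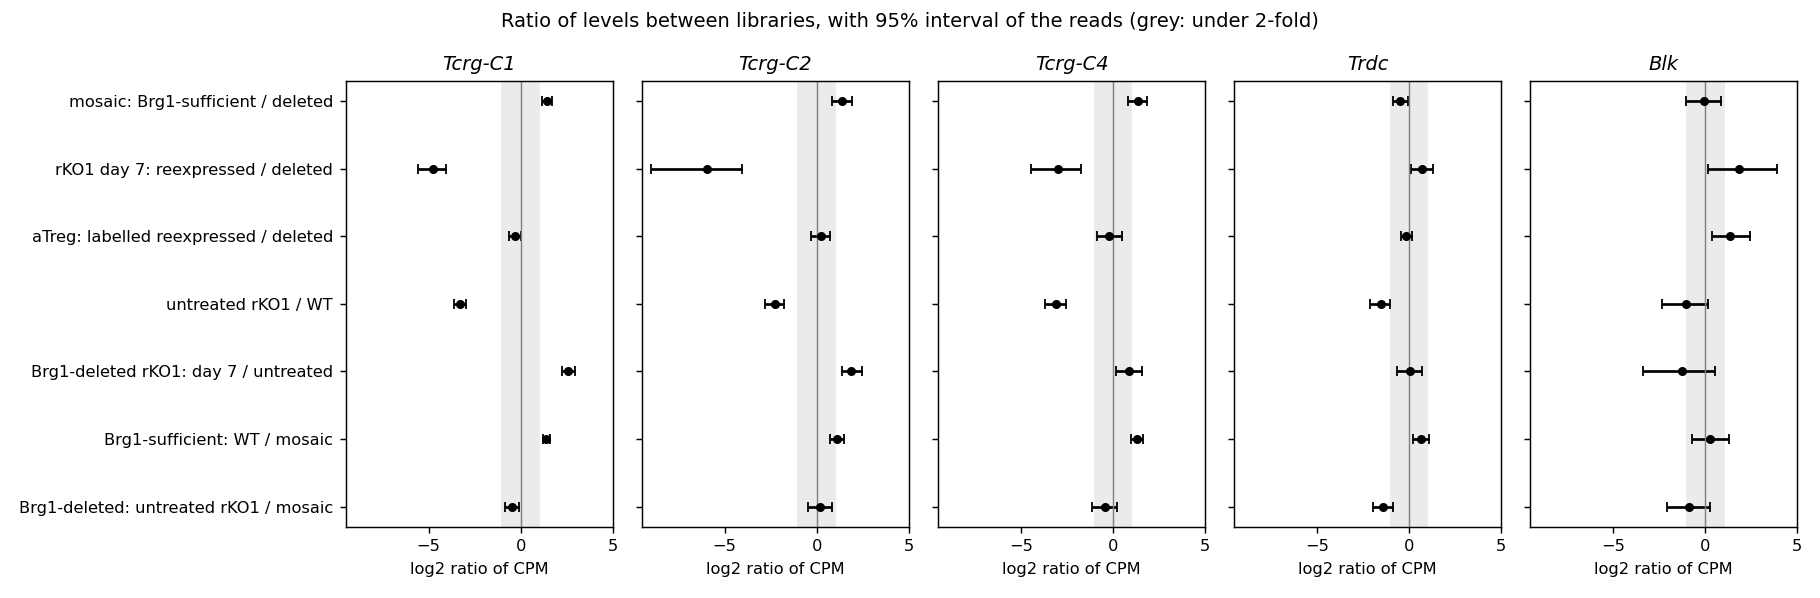
Log2 ratio of CPM between the libraries of each of the 7 comparisons (horizontal axis), with 95% intervals of the reads, for 5 of the genes. The grey band marks differences under 2-fold, and Sox13 is left out since it has 0 reads in a library. Tcrg-C1, Tcrg-C2 and Tcrg-C4 lie right of 0 in the mosaic comparison and left of it in the rKO1 comparison on day 7, near 0 in aTreg cells, and right of the band or at its edge also between WT and mosaic Brg1-sufficient cells.

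Trdc differed from the gamma C genes in its level, its range and its order. Its reads were 104 in WT, 86 and 137 in Brg1-sufficient and Brg1-deleted mosaic cells, and 41, 40 and 59 in untreated, GFP+ and GFP- rKO1 cells, or 2.15 to 6.27 CPM. Its highest library was 2.92-fold above its lowest, against 45.1-fold for Tcrg-C1, 36.0-fold for Tcrg-C4 and 83.3-fold for Tcrg-C2. In the order from WT down, only the steps from Brg1-deleted to Brg1-sufficient mosaic cells (1.39-fold, 1.05–1.84) and from GFP- to GFP+ rKO1 cells (1.61-fold, 1.06–2.47) exceeded counting error. In deposited FPKM it ran from 0.599 to 1.77 in total Treg cells, and from 2.35 to 2.70 in aTreg cells. Its FPKM was 0.0497% to 0.134% of that of Trac in all 8 libraries.

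The reads of Tcrg-C1 for each read of Trdc can be taken within a library, with no scaling between libraries. The ratio was 6.88 (5.59–8.53) in WT, 4.05 (3.19–5.19) in Brg1-sufficient and 1.08 (0.850–1.37) in Brg1-deleted mosaic cells. In rKO1 mice it was 2.05 (1.39–3.05) without treatment, 12.0 (8.70–17.0) in GFP+ cells and 0.271 (0.146–0.478) in GFP- cells. In the aTreg libraries it was 0.929 (0.749–1.15) in that labelled Brg1-deleted and 0.846 (0.678–1.05) in that labelled Brg1-reexpressed. The ratio thus covered a 44.3-fold range over the 6 total Treg libraries, with no overlap between the intervals of these 6 libraries, and 1.10-fold over the 2 aTreg libraries. Taken per length as FPKM, Tcrg-C1 exceeded Trdc 1.13-fold in the GFP- rKO1 library and 50.3-fold in the GFP+ one.

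**Figure D3:**
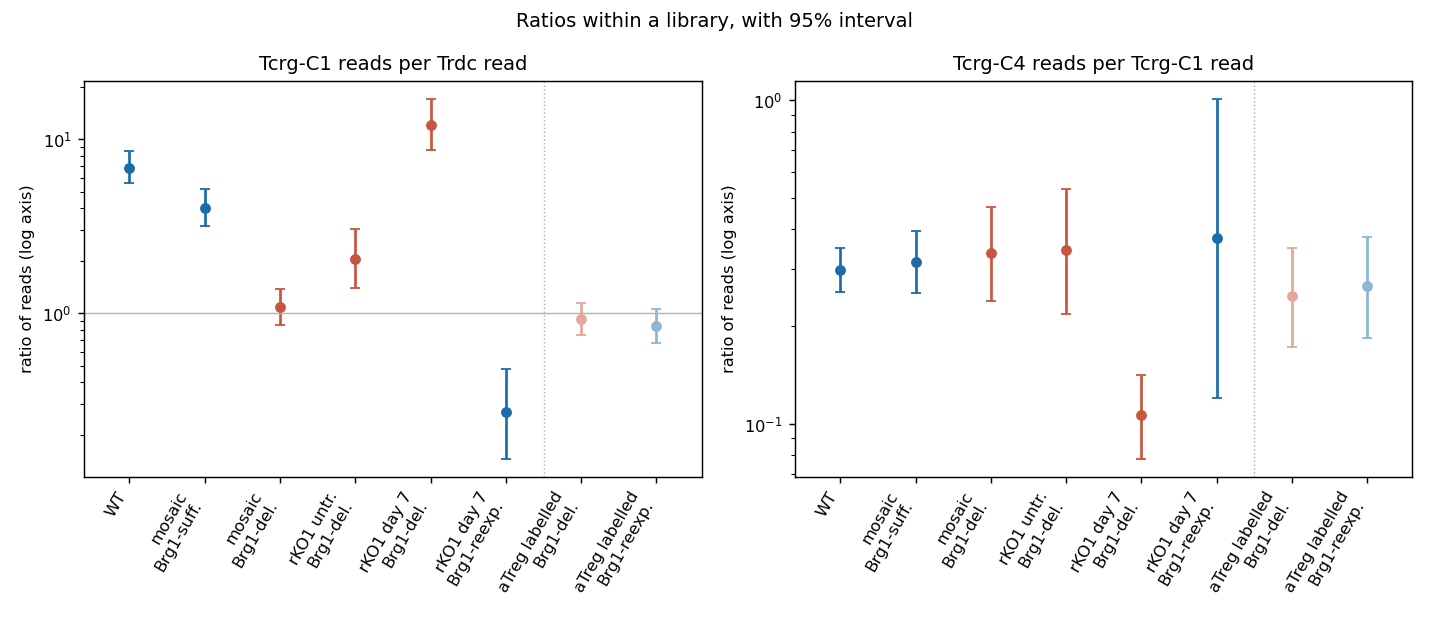
Left, reads of Tcrg-C1 per read of Trdc, and right, reads of Tcrg-C4 per read of Tcrg-C1, in each library (log axes, 95% intervals, colours by Brg1 label, paler points for aTreg). On the left the GFP+ and GFP- rKO1 libraries hold the extremes, 12.0 and 0.271, and the aTreg libraries sit at 0.929 and 0.846. On the right the GFP+ rKO1 library is lowest, at 0.106, and its interval overlaps only that of the GFP- rKO1 library.

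The V and J segments of the same loci are given beside the C genes, since a complete TCR chain holds a V, a J and a C part. The annotation holds 26 gamma and delta locus genes, 15 gamma and 11 delta. Of the genes that are not among the 6, only Trdv1, a delta V segment, reached 5 CPM in any library. It had 87 reads (5.20 CPM) in Brg1-reexpressed rKO1 cells and 43 to 85 reads in the other total Treg libraries. Trdv2-2 had 21 to 104 reads, and 26.4% of its exon bases are also covered by the antisense gene Gm43647. The delta D segments Trdd1 and Trdd2 had 0 reads in all 8 libraries.

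Gamma V segments were low throughout. Summed over the 7 V genes of the locus they had 45 reads in WT, 68 and 21 in Brg1-sufficient and Brg1-deleted mosaic cells, and 19, 45 and 6 in untreated, GFP+ and GFP- rKO1 cells. The 4 C genes together had 1102, 560, 247, 153, 669 and 25 reads in the same libraries. The 3 libraries with the most C reads also had the most V reads, but WT, with the most C reads of all, had fewer V reads than the Brg1-sufficient mosaic cells. As a share of the C genes per length (FPKM), the gamma V genes came to 9.67% in WT, 27.5% and 18.4% in the mosaic cells, 28.8% and 14.7% in untreated and GFP+ rKO1 cells, and 49.7% in GFP- cells, the last from 6 V reads. For the beta chain, the same share was 32.8% to 42.0% over the 8 libraries, and for the alpha chain 27.7% to 71.7%.

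Trgv2 and Tcrg-V1, which lie next to the clusters of Tcrg-C2 and Tcrg-C4, had most of the gamma V reads in the 3 libraries with the most C reads, with 23 and 32 reads in Brg1-sufficient mosaic cells, 23 and 12 in GFP+ rKO1 cells and 6 and 27 in WT. Tcrg-V4, Tcrg-V5 and Tcrg-V6, which lie in the cluster of Tcrg-C1, had 0 to 11 reads each in every library, but in untreated rKO1 cells and in the aTreg library labelled Brg1-reexpressed they had more reads together than Trgv2 and Tcrg-V1. Trgj1, the J segment that precedes Tcrg-C1, had 36 reads in WT, 23 and 5 in the mosaic cells, and 5, 13 and 0 in the untreated, GFP+ and GFP- rKO1 cells. Like Tcrg-C1, it had the most reads in WT and the fewest in GFP- rKO1 cells. Tcrg-C3 had 0 to 9 reads.

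**Figure D4:**
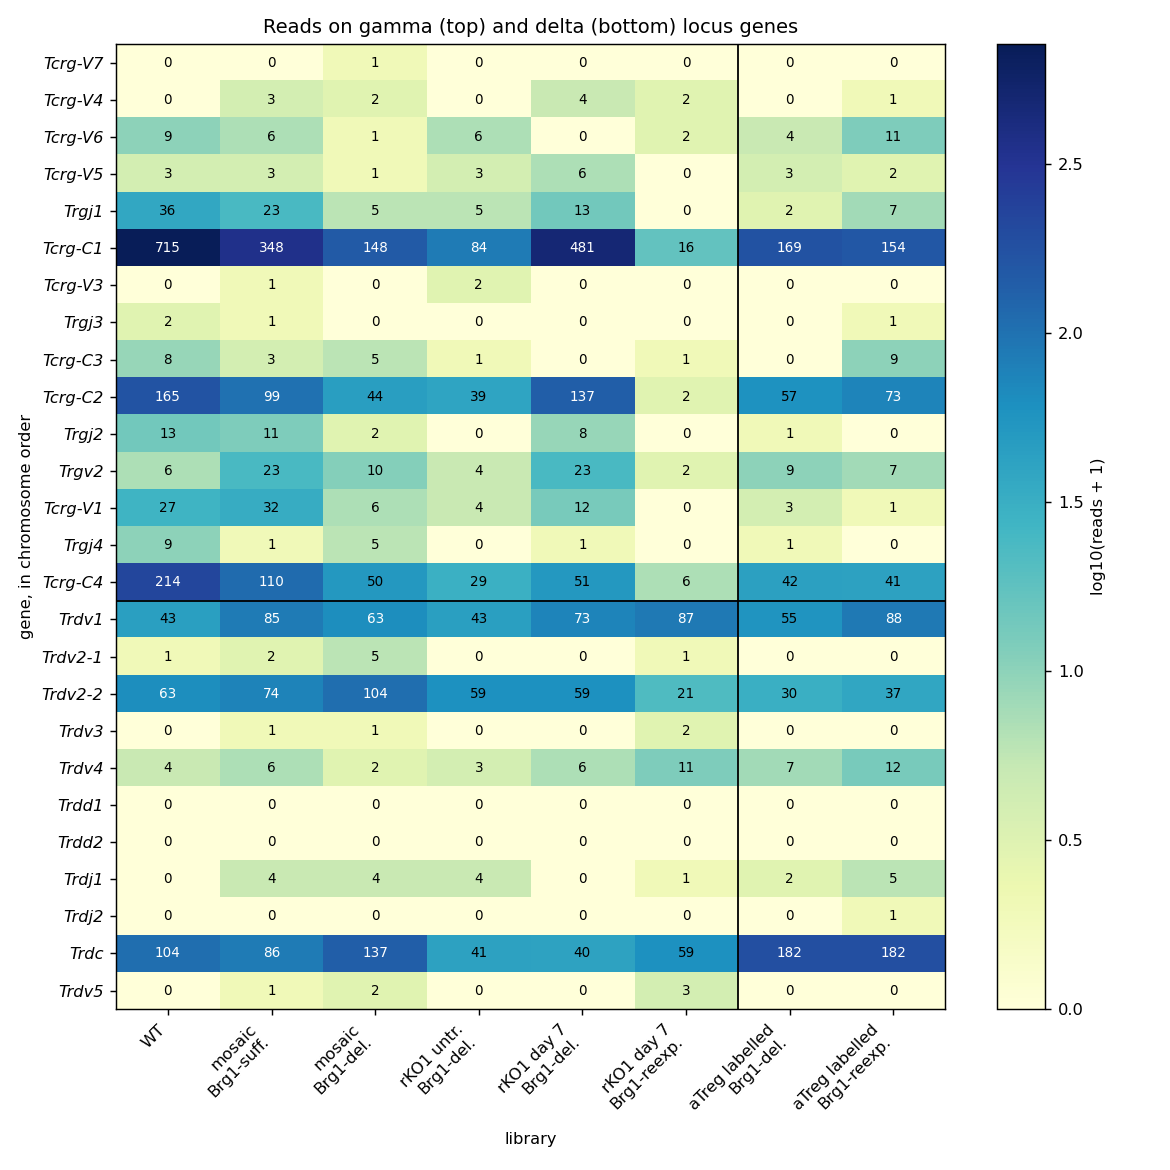
Reads on the 26 annotated gamma (top) and delta (bottom) locus genes, in chromosome order, in the 8 libraries, with colour as log10(reads + 1) and the number of reads in each cell. Tcrg-C1, Tcrg-C2 and Tcrg-C4 hold most reads of the gamma locus, from 715 on Tcrg-C1 in WT to 2 on Tcrg-C2 in Brg1-reexpressed rKO1 cells, while the gamma V segments stay at 32 reads or fewer.

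Sox13 was near the floor. It had 17 reads (1.03 CPM, 0.597–1.64) in WT, 2 and 4 in Brg1-sufficient and Brg1-deleted mosaic cells, 0, 4 and 3 in untreated, GFP+ and GFP- rKO1 cells, and 4 and 5 in the aTreg libraries. WT thus stood above the next total Treg library, GFP+ rKO1, by 4.69-fold (1.53–19.2), above Brg1-sufficient mosaic cells by 10.9-fold (2.58–96.9) and at least 6.53-fold over untreated rKO1 cells, taking 3 reads as the floor. No difference between the GFP+ and GFP- rKO1 libraries was detectable at this depth (0.820-fold, 0.120–4.85), nor between the mosaic libraries (0.573-fold, 0.0518–4.00). The highest Sox13 count fell in the library with the highest Tcrg-C1.

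Blk was low in every library and did not follow the gamma C genes. It had 18 reads (1.09 CPM) in WT, 19 and 23 in Brg1-sufficient and Brg1-deleted mosaic cells, and 10, 4 and 13 in untreated, GFP+ and GFP- rKO1 cells. In the mosaic pair it was level (0.947-fold, 0.488–1.82), and in rKO1 mice on day 7 it was 3.55-fold higher with Brg1 (1.10–15.0), opposite to Tcrg-C1. In aTreg cells it had 34 reads in the library labelled Brg1-reexpressed and 12 in that labelled Brg1-deleted, 2.55-fold apart (1.29–5.40). It reached 5 CPM nowhere, so it was tested in none of the comparisons.

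Since Blk is also a B cell gene, the 12 B cell markers are given beside it. In aTreg cells, 2 of the 6 B cell markers that were tested were called, both higher in the library labelled Brg1-reexpressed. They were Ms4a1, the CD20 gene (23 and 135 reads, 5.28-fold, 3.37–8.61), and Bank1, a B cell adaptor (55 and 183 reads), in the same direction as Blk. In the mosaic comparison, 1 of 4 tested was higher with Brg1 (Ighm) and 1 lower (Ighd), while Blk was level. In rKO1 cells on day 7, 3 of 4 tested markers were higher in GFP- cells (Cd79b, Ighm and Ighd), again in the direction of Blk, while Ms4a1 had 5 reads in GFP- and 22 in GFP+ cells. The defining marker Pax5 had at most 23 reads, in Brg1-deleted mosaic cells. The summed B cell list ranged from 172 to 1276 CPM in total Treg cells, of which Ighm made the most. The part of B cell RNA in the Blk reads was not tested.

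Markers of gamma-delta T cells were listed to set beside the locus genes. Of the 20 genes of that list, which includes Trdc, Sox13 and Blk, 3 to 7 were at the floor in each library. Without those 3 genes, the list summed to 179 CPM in WT, 314 and 83.2 CPM in Brg1-sufficient and Brg1-deleted mosaic cells, and 226, 228 and 308 CPM in untreated, GFP+ and GFP- rKO1 cells. Most of this sum was Maf and Ccr6, which Treg cells also express. The sum was not highest in WT, where Tcrg-C1 was highest, and it was larger in GFP- than in GFP+ rKO1 cells, where Tcrg-C1 was 27.5-fold lower. In bulk samples, fewer cells of a type and less RNA per cell cannot be told apart.

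The markers that are more particular to gamma-delta T cells had low counts. Several were above the floor in some libraries, among them 5830411N06Rik and Il17f. Both had their most reads of the total Treg libraries in Brg1-sufficient mosaic cells. Cd163l1, a scavenger receptor also known as SCART1, had 3 reads in WT, 9 and 7 in the mosaic cells and 13, 1 and 0 in untreated, GFP+ and GFP- rKO1 cells, with the most in the untreated library where Tcrg-C1 was low. Zbtb16, the PLZF gene of innate-like T cells, had 0 to 6 reads. Il17a, made by gamma-delta and Th17 cells, had 7 reads in WT, 5 and 0 in the mosaic cells and 0, 15 and 1 in the rKO1 cells, so it was above the floor in the 3 libraries with the most Tcrg-C1. The same 3 libraries held most reads of 5830411N06Rik, the SCART2 gene, with 14 in WT, 61 in Brg1-sufficient mosaic cells and 12 in GFP+ rKO1 cells, against 0 or 1 in the other total Treg libraries. Il17f had 71 reads in Brg1-sufficient mosaic cells and 3 to 17 elsewhere in total Treg cells. The part of gamma-delta T cells in the Tcrg-C reads was not tested.

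The called genes of this list went with Tcrg-C1 in the mosaic comparison and were split in the rKO1 comparison. In the mosaic comparison 8 of the 20 were tested and 6 were higher with Brg1, among them Maf (log2 2.57), Tmem176a (2.39) and Tmem176b (1.74), with a median log2 of 1.59 against 0.03 over all genes tested. In rKO1 cells on day 7, 6 were tested, and Tmem176a (log2 −1.76) and Tmem176b (−1.44), neighbouring membrane protein genes, were lower in GFP- cells, as was Tcrg-C1. Maf (1.28) was among 2 that were higher there, opposite to Tcrg-C1, and the median was −0.28 against 0.06. In aTreg cells 0 of 8 tested were called. Between untreated rKO1 cells and WT, 5 of 7 were lower in rKO1 cells, as was Tcrg-C1 (median log2 −1.45). These 5 include Trdc. GFP+ over untreated rKO1 cells gave 3 of 5 higher and 0 lower, again the direction of Tcrg-C1 (median 1.18). WT over Brg1-sufficient mosaic cells gave 0 of 8 higher and 2 lower, opposite to Tcrg-C1 (median −0.75). Untreated rKO1 over Brg1-deleted mosaic cells gave 2 of 6 higher and 1 lower. Tmem176b, at 14.5 CPM in WT, 27.8 and 8.32 CPM in the mosaic cells and 5.81, 25.8 and 9.49 CPM in the rKO1 cells, was high in the libraries with much Tcrg-C1, with WT below the Brg1-sufficient mosaic cells.

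Among markers of NK or innate-like lymphocytes, Ncr1 was high in the same library of both Brg1 pairs as Tcrg-C1, and low in WT. Ncr1, the NKp46 gene, had 104 reads (4.91 CPM) in Brg1-sufficient and 1 read in Brg1-deleted mosaic cells, and 122 reads (6.66 CPM) in GFP+ and 0 in GFP- rKO1 cells, where it was at least 37.2-fold lower. In WT it had 7 reads (0.422 CPM), as it did in untreated rKO1 cells. Klrb1c, the NK1.1 gene, had 29 and 2 reads in the mosaic cells, 47 and 4 in GFP+ and GFP- rKO1 cells, and 11 in WT. WT thus had the most Tcrg-C1 and 11.6-fold less Ncr1 (5.45–29.6) than Brg1-sufficient mosaic cells. Of the 9 genes of this list, 1 of 4 tested was called in the mosaic comparison (Fcer1g, higher with Brg1) and 4 of 5 in rKO1 cells on day 7, all lower with Brg1 (Ncr1, Fcer1g, Tyrobp and Xcl1). The summed list, mostly Nkg7, was 187 CPM in WT and 177 and 201 CPM in Brg1-sufficient and Brg1-deleted mosaic cells. In untreated, GFP+ and GFP- rKO1 cells it was 1197, 641 and 1002 CPM. The sum thus ran opposite to Ncr1 in both Brg1 pairs, and 0 to 2 genes of the list were at the floor in a library. In aTreg cells all 4 genes tested were higher in the library labelled Brg1-reexpressed, while Tcrg-C1 did not differ there. The part of such cells in the Tcrg-C reads was not tested.

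The alpha-beta TCR genes were not called in either Brg1 pair of total Treg cells. Of the 7 tested genes of the alpha-beta TCR and CD3 list, 0 were called in the mosaic comparison and 0 in rKO1 cells on day 7, and Ptcra, the pre-TCR alpha gene of thymocytes, had 0 reads in all libraries. Trac was 1.68-fold higher in GFP- than in GFP+ rKO1 cells (1.65–1.71). Cd3e was the 1 called gene of the list in aTreg cells, with 943 CPM in the library labelled Brg1-deleted and 385 CPM in the other. Foxp3, the Treg master regulator, was at 73.1 CPM in WT, 536 and 245 CPM in Brg1-sufficient and Brg1-deleted mosaic cells, and 174, 106 and 109 CPM in untreated, GFP+ and GFP- rKO1 cells. WT, highest in Tcrg-C1, was lowest in Foxp3, whereas the GFP+ and GFP- rKO1 cells were level in it (1.03-fold, 0.969–1.10). Of the 8 genes of the sort and Treg list, all tested, 1 was called in the mosaic comparison (Foxp3, log2 1.13) and 1 in rKO1 cells on day 7 (Ctla4, an inhibitory receptor, log2 1.52), both higher with Brg1, and 0 in aTreg cells. The CD8 genes Cd8a and Cd8b1 had 4 to 76 and 110 to 462 reads in total Treg cells. Cd8a stayed under 5 CPM, and Cd8b1 was tested and not called in the mosaic, rKO1 day 7 and aTreg comparisons. Cd8b1 was called as lower in untreated rKO1 cells against WT (log2 −1.51) and against Brg1-deleted mosaic cells (log2 −1.59).

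Other cell types were sought as well, since their RNA could accompany any of the 6 genes. Of 7 plasma cell genes, 0 were tested in the mosaic comparison, 3 of 4 were lower with Brg1 in rKO1 cells on day 7, the direction of Tcrg-C1, and 3 of 4 were higher in the aTreg library labelled Brg1-reexpressed, led by Ighg1 (log2 4.54). Of 8 myeloid genes, 0 of 1 was called in the mosaic comparison, 3 of 5 (Lyz2, Cd68 and Adgre1) were lower with Brg1 in rKO1 cells, and 2 of 5 were higher in the aTreg library labelled Brg1-reexpressed. The summed myeloid list was 416 CPM in WT, where Tcrg-C1 was highest, and 47.9 to 137 CPM in the other total Treg libraries. Of 6 erythroid genes, 0 of 4 were called in the mosaic comparison, 0 of 3 in rKO1 cells and 6 of 6 in aTreg cells. Between WT and Brg1-sufficient mosaic cells, where the 3 gamma C genes were higher in WT, all 5 tested myeloid genes were higher in WT as well, from Cd68 (3.05-fold, 2.37–3.96) to Adgre1 (24.5-fold, 10.9–68.1), as were 3 of 4 erythroid genes and the 1 plasma cell gene tested, Jchain. Between untreated rKO1 cells and WT, where Tcrg-C1, Tcrg-C2, Tcrg-C4 and Trdc were lower in rKO1 cells, 5 of 5 plasma cell genes and 3 of 5 NK or innate-like genes were higher in rKO1 cells, 2 of 5 myeloid genes were higher and 1 (Lyz2) was lower, and 2 of 3 B cell genes and 1 of 4 erythroid genes were lower. Between GFP+ and untreated rKO1 cells, 1 of 5 plasma cell genes was higher and 1 lower, and 1 of 5 myeloid genes was lower. In the delta locus list of 11 genes, 1 was tested in each of the mosaic, rKO1 day 7 and aTreg comparisons (Trdc, or Trdv1 in rKO1 cells) and 0 were called. The part of these cell types in the reads of the 6 genes was not tested.

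**Figure D5:**
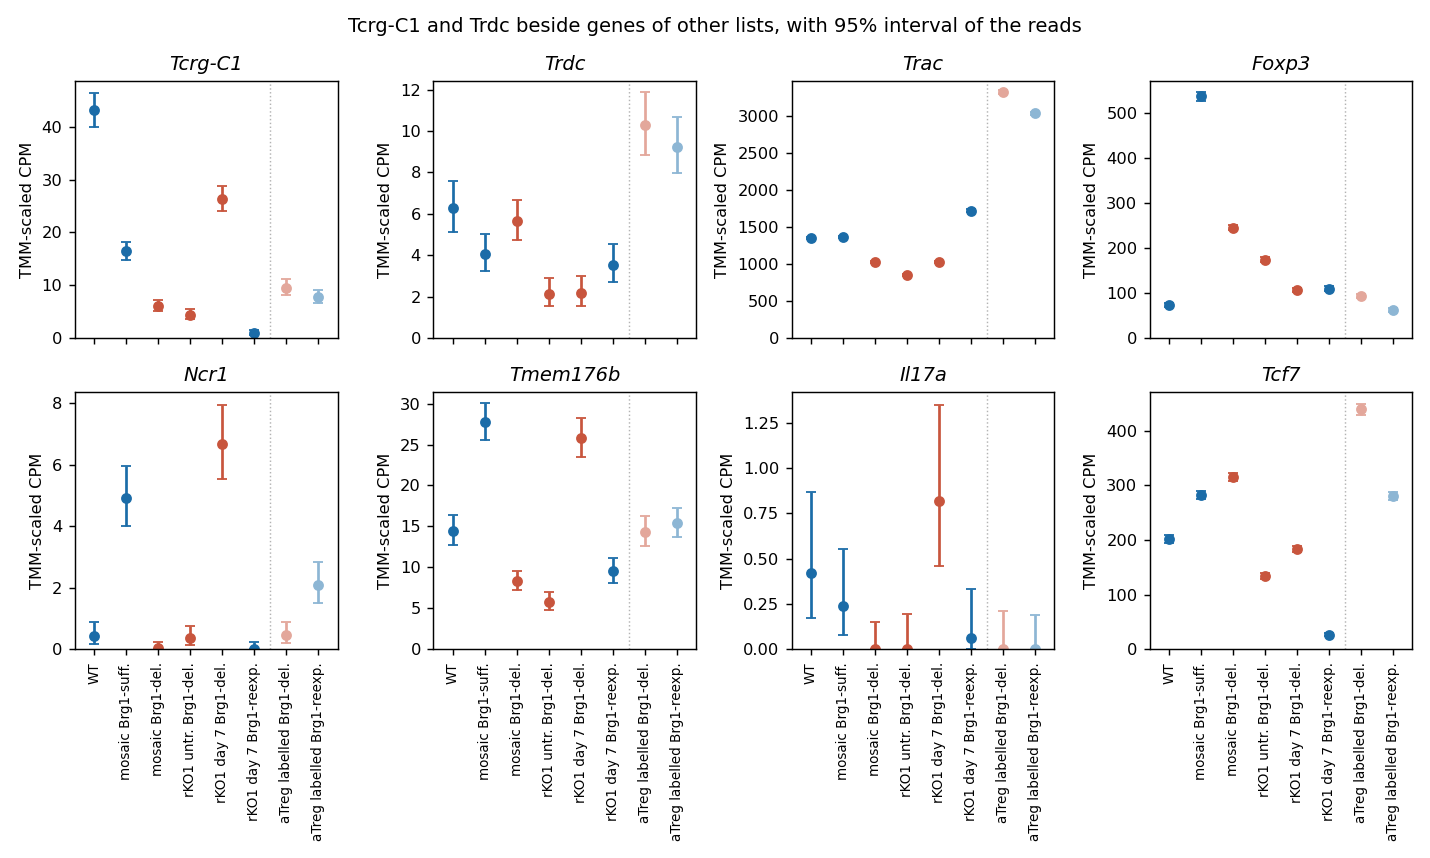
TMM-scaled CPM (vertical axes starting at 0) with 95% intervals in the 8 libraries for Tcrg-C1 and Trdc and for genes of other lists, with colours as in the plot of the 6 genes. Ncr1 and Tmem176b are highest in Brg1-sufficient mosaic and GFP+ rKO1 cells and lower in WT, where Tcrg-C1 is highest at 43.1 CPM, and Tcf7 is lowest in the GFP- rKO1 library, where Tcrg-C1 is at 0.955 CPM.

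The gamma locus is opened in T cells by IL-7 receptor signalling through STAT5, and is held by TCF7, RUNX, E protein and other factors. Of 21 such regulators, 19 were tested in each comparison. In the mosaic comparison 2 were higher with Brg1, Il7r (5.08-fold, 4.63–5.58; log2 2.34), the receptor chain, and Id2 (log2 2.16), an inhibitor of E proteins, and 1 was lower, Id3 (log2 −1.21), another such inhibitor. The median log2 was −0.10, against 0.03 over all genes tested. In rKO1 cells on day 7, Tcf7 (6.88-fold lower, 6.23–7.61; log2 −2.78) and Id3 (log2 −2.13) were lower with Brg1, and none was higher, with a median of −0.28 against 0.06. Il7r was 1.06-fold lower there (1.01–1.12) and not called, and in WT it stood at 49.5 CPM, below the 114 CPM of Brg1-sufficient mosaic cells. In aTreg cells Id2 was called (log2 1.01, higher in the library labelled Brg1-reexpressed), with a median of −0.18 against −0.06. In WT over Brg1-sufficient mosaic cells, 0 regulators were higher and 5 lower, Il7r among them, opposite to the gamma C genes (median −0.53 against −0.06). In untreated rKO1 cells over WT, 4 were higher and 0 lower, again opposite to the gamma C genes (median 0.39 against −0.05). GFP+ over untreated rKO1 cells gave 0 higher and 1 lower. Untreated rKO1 over Brg1-deleted mosaic cells gave 4 higher and 3 lower. Rag1 and Rag2, whose products cut TCR segments during rearrangement, had 0 or 1 reads in every library.

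Tcf7 ranged from 26.6 CPM in GFP- rKO1 cells to 315 CPM in Brg1-deleted mosaic cells. It was lowest where Tcrg-C1 was lowest, but it was high in Brg1-deleted mosaic cells, where Tcrg-C1 was at 6.10 CPM, and at 202 CPM in WT. It belongs also to a list of 15 naive T cell genes, of which 14 were tested in rKO1 cells on day 7. There 6 were lower with Brg1 and 0 higher, with Igfbp4 (log2 −4.70), Bach2 (−3.29), Bcl2 (−3.25) and Tcf7 the most, and a median of −0.77. In the mosaic comparison 2 of 15 were higher with Brg1, Il7r and Dapl1 (log2 2.17), and 3 were lower, Igfbp4 and Bcl2 among them, and in aTreg cells 0 of 14 were called. Some of these genes were known from earlier results of these libraries, so the counts are not independent evidence of a direction.

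The genes whose pattern was most like that of Tcrg-C1 were sought among 1740 genes that reached 5 CPM and ranged at least 4-fold over the 6 total Treg libraries. By the Pearson correlation of log2(CPM + 0.5) over these 6 libraries, 4 of which chose Tcrg-C1, they were Tcrg-C2 (0.99), Apol7e (0.96), Tnfsf11 (0.95), Akr1c18 (0.93) and Tcrg-C4 (0.92). The values describe these libraries, and Tcrg-C1 and Tcrg-C2 are near copies. Tnfsf11, which encodes RANKL, was at 29.7 CPM in WT and 7.23 CPM in Brg1-reexpressed rKO1 cells. Akr1c18, an enzyme of progesterone breakdown, was at 6.27 CPM in WT, 8.41 CPM in GFP+ and 0.0597 CPM in GFP- rKO1 cells. No gene of the gamma-delta or NK lists was among these 5. Trdc, with a 2.92-fold range, could not enter the search. Nor could Sox13, Blk and other genes of these lists that stayed under 5 CPM, so nothing is read from their absence.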

How the data were processed

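RNA-seq of 8 libraries of sorted mouse Treg cells (SMART-Seq v4, paired 150-base reads) was used. The authors deposited 1 table of FPKM values per library, without replicates, and the submitters' processing notes name HISAT2 2.0, StringTie 1.3.3b, featureCounts 1.5.0-p3 and build mm10, with no roles given. FPKM are reads scaled by exon length and library size, so whole reads were recovered as FPKM × exon length of GENCODE M21 (GRCm38) divided by the worth of 1 read in that library. With a tolerance of 0.01 reads, 93.1% of the 26057 genes with reads in total Treg cells and 99.9% of 21242 in aTreg cells came out whole at the annotated length, all 6 genes among them. Of the 53465 identifiers, 53274 were in the annotation.

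Reads were scaled by an own implementation of TMM (trimming 30% of log ratios and 5% of log levels) within each experiment. A gene was tested where 1 or both libraries reached 5 CPM, and called at 2-fold or more. Log2 values carry a prior of 0.125 reads, folds with intervals are ratios of reads, and intervals are exact 95% Clopper-Pearson intervals, conditional on the sum of reads. With 1 library per group there is no estimate of the spread between mice, so no count model was fitted. Depth was 16283424 to 24036805 reads, and 3 reads were taken as the floor. Recovery, scaling and intervals were tested on simulated data.

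Named genes were the 6 genes, locus genes that reached 5 CPM, and from each of the other 12 lists (delta locus, gamma-delta T cell, alpha-beta TCR and CD3, sort gate and Treg, CD8 T cell, NK or innate-like, B cell, plasma cell, myeloid, erythroid, TCR gamma locus regulators, naive T cell) the genes that define a cell type and up to 4 with the largest called change. The 5 genes most like Tcrg-C1 were added. Some genes of these lists are not reported here. Genes named beyond this rule (Xist, Ddx3y, Il17f, Klrb1c, 5830411N06Rik, Tcrg-C3 and single V and J segments) were chosen after their values were seen. The 6 genes and all lists were chosen with earlier results of these data known. Computation was done with pandas 2.3.3, SciPy 1.17.1 and NumPy 2.4.6 under Python 3.11.15, and figures with matplotlib 3.10.9. Sequences come from the GENCODE M21 transcripts. Alternatives were other scalings, the FPKM as deposited, another prior, filter and threshold, and sums of near-identical C genes.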

Additional observations from a re-analysis of the deposited data

Results flagged for a closer look

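The log2 differences of 4 genes between Brg1-positive and Brg1-deleted Treg cells had opposite signs in the mosaic females and in TAM-treated rKO1 mice (day 7). The mosaic value minus the rKO1 value was 6.20 for Tcrg-C1, 7.25 for Tcrg-C2, 4.27 for Tcrg-C4 and -1.16 for Trdc. Tcrg-C1, Tcrg-C2 and Tcrg-C4 were higher with Brg1 in mosaic cells and lower with Brg1 in rKO1 cells, and Trdc was the reverse. Each side is 1 library per group, so the difference was not tested, and Tcrg-C1 was chosen for it.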

How the results depend on the processing

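Of 76 alternative values, 70 were taken as unchanged and 6 as changed. They were the counts of called genes, and the Tcrg-C1 differences in the mosaic, rKO1 day 7 and aTreg comparisons. With total reads in place of TMM, 1 of the 6 genes was called in the mosaic comparison instead of 2. Without a filter on low values, 4 were called in rKO1 cells on day 7 and 4 between GFP+ and untreated rKO1 cells, instead of 2 each, 2 between untreated rKO1 and Brg1-deleted mosaic cells instead of 1, and 1 in aTreg cells instead of 0, as also with a filter of 1 CPM. In the first, Tcrg-C4 stood at 4.79 CPM of total reads in Brg1-sufficient mosaic cells, under the filter of 5 CPM, with a log2 difference of 1.20 against 1.33. The others follow from the genes that the filter had kept out. Some counts that changed by a smaller proportion were still taken as unchanged. Without a filter, 6 genes were called between untreated rKO1 cells and WT instead of 4. In the mosaic comparison 3 were called instead of 2, and between WT and Brg1-sufficient mosaic cells 4 instead of 3. Of 185 values of the other 5 genes, and of Tcrg-C1 in the remaining comparisons, 184 kept their sign. Total reads moved the median log2 difference of all genes tested by -0.13 in the mosaic comparison, -0.35 in rKO1 cells on day 7, 0.30 between untreated rKO1 and WT and 0.22 between untreated rKO1 and Brg1-deleted mosaic cells, and FPKM as deposited moved it by 0.10 between WT and Brg1-sufficient mosaic cells. With total reads, the share of higher among called genes went from 65.9% to 49.3% (mosaic), from 55.9% to 22.8% (rKO1 day 7), from 54.7% to 78.0% (untreated rKO1 over WT), from 48.8% to 35.3% (GFP+ over untreated) and from 54.0% to 72.8% (untreated rKO1 over mosaic). With FPKM as deposited it went from 44.9% to 57.0% (WT over mosaic). Leaving the 6 erythroid genes out of the aTreg totals, chosen after seeing the data, changed no call of the 6 genes. No paired analysis was possible because each group is 1 library, and for the same reason no replicate could be left out. Counts of 3 reads or fewer, as for Sox13 and for Tcrg-C2 in Brg1-reexpressed rKO1 cells, limit what the depth can show.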
